A study of Mus musculus with 8 samples.

Results

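The 5 genes followed here were Id1, Id2, Smad3, Tgfbr2 and Tgfb3, a set of 2 Id genes and 3 components of the TGF-beta pathway. Each gene was read from 1 probe, the one that the study's list of differentially expressed genes pairs with its symbol. Thus 5 of 42006 distinct probes were followed, and whether others on the array target these genes was not determined. The study drew up that list by an analysis of variance over the same arrays, and the directions and calls reported for these genes, and for every other gene named below, are therefore not evidence independent of that choice.

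Id proteins are helix-loop-helix factors that lack a DNA-binding region. They pair with E proteins and so keep those from binding DNA, and in embryonic stem (ES) cells Id1 and Id2 are known as targets of BMP, which signals through Smad1, Smad5 and Smad8. TGF-beta ligands such as Tgfb3 bind the receptor Tgfbr2, which recruits and phosphorylates a type I receptor, and that receptor phosphorylates Smad2 and Smad3, which enter the nucleus with Smad4. Activin and Nodal reach Smad2 and Smad3 through other type II receptors, and both branches are known to act in the early embryo, where the inner cell mass divides into epiblast and primitive endoderm (PrEn).

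RNA came from 129/Ola mouse ES cells of 2 HV clones, 5.1 and 16.1, each a single targeted line. In HV cells a tagged Hex cDNA and a Venus fluorescent protein, the latter translated from an amplifying internal ribosome entry site, were knocked in at the Hex locus, so that Venus (V) reads out transcription of an early endoderm gene, and all samples carried this allele. Cells grown in LIF under self-renewing conditions were sorted by Venus and by SSEA-1 (S), a surface antigen of undifferentiated ES cells, into 4 fractions, which were V-S+ and V+S+ among SSEA-1-positive cells and V-S- and V+S- among the others, with 1 sample of each fraction per clone and 8 samples in all. Every sample was labelled with Cy3 and hybridised against a Cy5-labelled pool of mouse cell line RNA, with no dye swap. The values are log2 ratios of sample to that reference after background correction and loess normalization. They set fractions of 1 probe side by side, and levels of different genes are not compared. The fractions were not followed in time, and words such as rise, loss or step stand for differences between them. Because RNA was pooled over sorted cells, a change in the share of expressing cells and a change in RNA per cell cannot be told apart.

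The probes that carry these measurements are 60 bases long, and their first 30 bases are printed to identify what was hybridised. Their positions in the transcripts were not determined.

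Id1 probe: ttcgtgcttctcggatttctgaggaaatat

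Id2 probe: tcggttacttaaatgaagtcttcggtcaga

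Smad3 probe: aaagagccgtgtcccctcttcttataaacg

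Tgfbr2 probe: aagaaattgtgtttttgaagcgacttattt

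Tgfb3 probe: tcttttcacctcgatcagcatcatgagtca

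All 5 probes were well above background in both channels of 16 of 16 scanner files. The margin differed: Cy3 signal over local background ran from 366 to 924 for Id1, from 84.2 to 369 for Id2 and from 32.1 to 139 for Smad3, but only from 2.30 to 9.08 for Tgfbr2 and from 2.32 to 7.02 for Tgfb3. For these probes the SD between repeat scans of an array, which were averaged into 1 value, was 0.017 to 0.050 in log2 units. Over all samples the median Cy3 signal over background was between 2.36 and 2.87, and between 28316 and 29671 probes were well above background.

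Each clone was hybridised on its own slide, and the effects of clone and slide cannot be told apart. All 5 genes read higher in clone 16.1 than in clone 5.1 in each of the 4 fractions, by between 0.05 and 0.66 on the log2 scale, and for each of the 5 the gap was widest in V+S+. The SD of that gap over all tested probes was between 0.19 and 0.30, with the 0.30 likewise in V+S+. Tests are given without clone as a term, as designed, and with clone as a block, which compares fractions within a clone. A gene was called at an adjusted p (limma, Benjamini-Hochberg over 29483 probes) of at most 0.05 and a change of more than 1.5-fold.

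The fractions were set beside markers of their labels. Of 16 PrEn markers on a fixed list, 8 could be named, and V+S- exceeded V-S+ with a call for 7 of these, where 5.73% of all probes were called higher, among them the transcription factor genes Gata6 (log2 difference 0.90) and Sox7 (1.77). Of 13 pluripotency markers 3 could be named, and Nanog (-0.96), Dppa3 (-1.75) and Pou5f1 (-1.01) were all called lower in V+S-, against 1.28% of all probes called lower. The single named marker of other lineages, Fgf5, a gene of the post-implantation epiblast, was higher in both Venus-positive fractions. It exceeded V-S+ by 1.41 in V+S+ and by 1.46 in V+S-, and only the second difference was called without the block. With the block both were called, where 3.87% and 8.87% of all probes were called higher. By quantitative PCR the study saw epiblast markers, Fgf5 among those measured, not enriched in V+S+. In V+S+ against V-S+ none of the 8 PrEn and 3 pluripotency markers was called without the block. With it, 1 of the 8 PrEn markers was called higher, Cited1 (0.89), against 3.87% of all probes, while Gata6 (0.17) and Sox7 (0.40) were not called. Dppa3 (-1.37) and Nanog (-0.72) were called lower with the block, against 1.75% of all probes called lower, and Pou5f1 (0.22) was not called. In V-S- against V-S+ no marker of these lists was called with or without the block, as for 0% of all probes. The median log2 difference there was 0.01 for the PrEn and -0.27 for the pluripotency markers. The study states that V-S- held a substantial share of undifferentiated ES cells. The part of a changed mixture of cells in the values below was not tested.

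Id1 was at one level in both Venus-negative fractions and at a higher level in both Venus-positive ones. The V-S+ samples had log2 ratios of -0.03 (clone 5.1) and 0.05 (clone 16.1), and the V-S- samples -0.01 and 0.16. The V+S+ samples gave 0.63 and 1.10, and the V+S- samples 0.85 and 1.03. Thus the 4 Venus-positive samples all lay above the 4 Venus-negative ones, with a gap of 0.47 between the groups, while V+S+ and V+S- overlapped.

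Id2 separated the same Venus-positive and Venus-negative samples. The V-S+ samples had log2 ratios of -1.27 (clone 5.1) and -1.16 (clone 16.1), and the V-S- samples -1.35 and -1.04. In the same order of clones the V+S+ samples gave -0.50 and 0.07, and the V+S- samples 0.07 and 0.50. Venus-positive and Venus-negative samples were 0.54 apart, and within each clone the V+S- sample was above the V+S+ one, although the V+S+ sample of clone 16.1 reached the V+S- sample of clone 5.1.

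Smad3, the transcription factor that carries TGF-beta, activin and Nodal signals, was highest in V+S-. Clone 5.1 gave log2 ratios of -1.75 for V-S+, -1.86 for V-S-, then -1.44 for V+S+ and -0.47 for V+S-. Clone 16.1 gave -1.53, -1.70, -0.79 and -0.15 in that order. The V+S- samples stood clear of the other 6, whereas the lower V+S+ sample, that of clone 5.1, was only 0.09 above the highest Venus-negative sample.

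Tgfbr2, the type II receptor for TGF-beta, ran in the same order. Clone 5.1 had log2 ratios of -2.93 in V-S+ and -2.94 in V-S-, then -2.52 in V+S+ and -1.84 in V+S-, and clone 16.1 had -2.66, -2.89, -2.00 and -1.35 in that order. No V+S- sample overlapped another fraction. The gap between Venus-positive and Venus-negative samples was 0.14.

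Tgfb3, a secreted TGF-beta ligand, had log2 ratios of -2.41 for V-S+ and -2.30 for V-S- of clone 5.1, with -2.14 for its V+S+ sample and -1.435 for its V+S- sample. For clone 16.1 the same fractions gave -2.07, -2.26, -1.71 and -1.06. Here too the V+S- samples were the highest, but V+S+ and V-S+ overlapped: the V+S+ sample of clone 5.1 was below the V-S+ sample of clone 16.1.

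**Figure D1:**
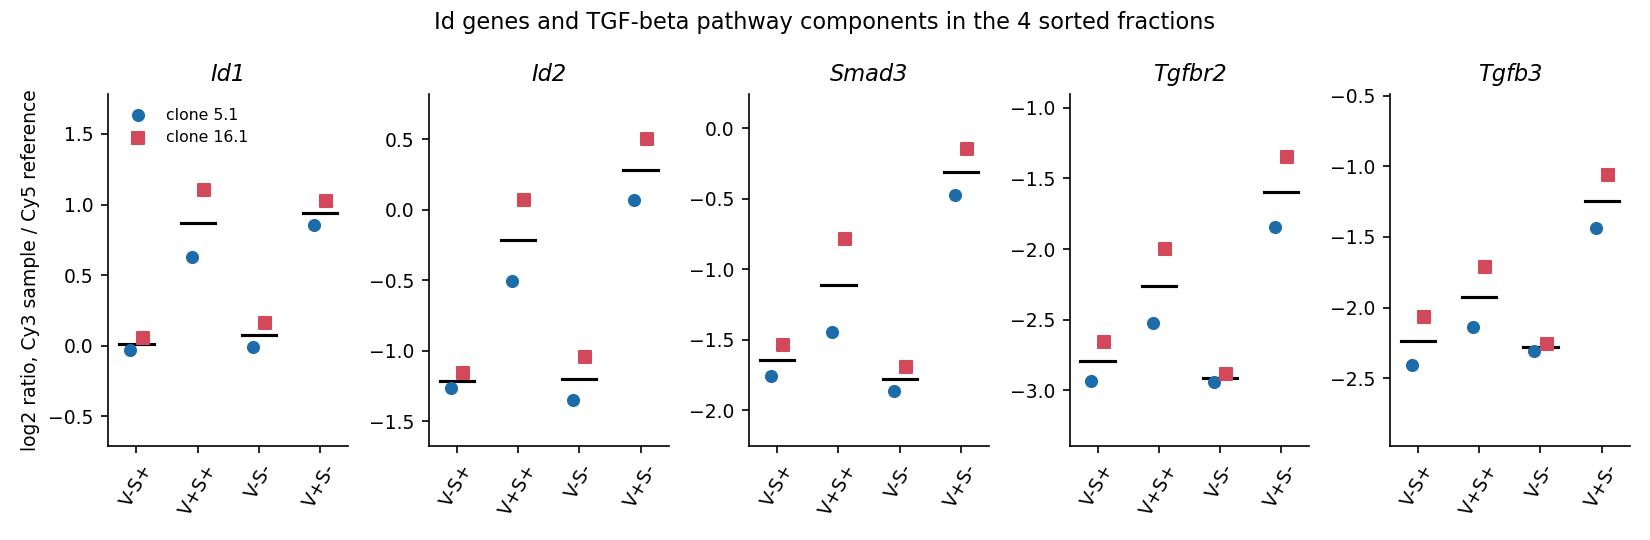
Log2 ratio of sample (Cy3) to reference (Cy5) for each gene in the 4 fractions, with circles for clone 5.1, squares for clone 16.1 and a bar for their mean; every panel spans the same range of log2 units. Id1 sits at 2 levels that follow Venus, with means of 0.87 in V+S+ and 0.94 in V+S-, whereas Smad3, Tgfbr2 and Tgfb3 stand out in V+S- and Id2 lies in between.

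The fraction V+S+ was set against V-S+ to ask what differs with Venus among cells that keep SSEA-1. All 5 genes were higher in V+S+ in both clones, which held for 39.7% of all probes tested. The differences on the log2 scale were 0.85 ± 0.16 (SE, n = 2 per fraction) for Id1, or 1.81-fold, and 0.99 ± 0.23 for Id2, or 1.99-fold. They were smaller for Smad3 (0.53 ± 0.23), Tgfbr2 (0.54 ± 0.22) and Tgfb3 (0.31 ± 0.19). Without the V+S+ sample of clone 16.1 these 3 were 0.20, 0.28 and 0.10. Without that of clone 5.1 Smad3 differed by 0.86 and Tgfb3 by 0.53, and leaving out V-S+ of clone 5.1 or 16.1 gave 0.15 or 0.48 for Tgfb3. In the signals as the scanner software processed them, and likewise in the authors' values, Tgfbr2 differed by 0.78 and Tgfb3 by 0.49, beside 0.86 for Id1, 0.93 for Id2 and 0.49 for Smad3.

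Within clones, Id1 was 1.58-fold higher in 5.1 and 2.07-fold higher in 16.1, and Id2 1.70-fold and 2.34-fold higher. The folds in the same clones were 1.24 and 1.68 for Smad3, 1.33 and 1.58 for Tgfbr2, and 1.21 and 1.28 for Tgfb3. Without the block none of the 5 was called, with adjusted p (limma) between 0.154 for Id1 and 0.408 for Tgfb3. In that model 0% of all probes was called higher, 5514 probes had an unadjusted p under 0.05, and Id1 and Id2 were among them. At the same FDR and fold the study reported genes changed in both directions here. It also did so between V+S+ and V+S- and between V-S- and V-S+, and the cause of that difference was not tested. With clone as a block, Id1 (adjusted p = 0.0039, limma) and Id2 (0.0036) were called, against 3.87% of all probes called higher.

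For the other 3 genes the block gave adjusted p-values (limma) of 0.023 for Smad3, 0.021 for Tgfbr2 and 0.058 for Tgfb3, and the folds of 1.44, 1.45 and 1.24 were under the threshold. The groups did not overlap for 4 of the 5 genes, Tgfb3 being the exception, and 27.6% of all probes were higher in V+S+ without overlap.

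The fraction V+S- set against V-S+ compares the endoderm-marked cells that have lost SSEA-1 with undifferentiated cells, and it shares the V-S+ samples with the comparison above. All 5 genes rose, with 5 of 5 called against 5.73% of all probes called higher. Id2 had the largest difference here, 1.496 ± 0.228 (SE, n = 2 per fraction; 2.82-fold), followed by Smad3 (1.33 ± 0.23, 2.52-fold), Tgfbr2 (1.20 ± 0.22, 2.29-fold), Tgfb3 (0.99 ± 0.19, 1.99-fold) and Id1 (0.93 ± 0.16, 1.90-fold). This order depended on the processing: in the signals as the scanner software processed them Tgfbr2 (1.61) came before Id2 (1.41), and Tgfb3 (1.39) before Smad3 (1.246). No V+S- sample overlapped V-S+ for any of the 5, as for 35.6% of all probes.

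Adjusted p-values (limma) ran from 0.017 for Id2 to 0.026 for Tgfb3, and from 0.00034 to 0.00073 with clone as a block, where 8.87% of all probes were called higher. In each clone alone the 5 folds were between 1.84 and 2.53 for clone 5.1 and between 1.96 and 3.15 for clone 16.1. With V-S+ of either clone, or V+S- of clone 16.1, left out, the calls did not hold for these genes or for nearly any other probe. The differences then lay between 0.80 (Tgfb3, without V+S- of clone 16.1) and 1.55 (Id2, without V-S+ of clone 16.1). In the authors' own processed values the adjusted p (limma) was 0.052 to 0.060. There 0 of 5 genes were called, and 395 of 25164 probes. All 5 differences stayed positive in these 4 fits.

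Cells without Venus and without SSEA-1 (V-S-) were set against Venus-negative cells with SSEA-1 (V-S+). On the log2 scale the differences were 0.06 for Id1, 0.01 for Id2, -0.13 for Smad3, -0.12 for Tgfbr2 and -0.04 for Tgfb3. Each had an SE between 0.16 and 0.23 (n = 2 per fraction). None was called, with an adjusted p (limma) of 1, or of at least 0.758 with the block. In this comparison 0% of all probes was called in either direction, 834 had an unadjusted p under 0.05, and none of these was a member. The 95% intervals without the block reached 1.48-fold higher for Id2 and 0.62 of the V-S+ level for Smad3. Under median centring in place of loess all 5 genes read lower in V-S-, with the sign turned for Id1 (-0.17) and Id2 (-0.20), and with -0.34 for Smad3, -0.25 for Tgfbr2 and -0.17 for Tgfb3, none of them called. In the signals as the scanner software processed them Tgfbr2 differed by -0.30 and Tgfb3 by -0.07. Without V-S+ of clone 5.1 the differences were -0.24 for Smad3, -0.26 for Tgfbr2 and -0.21 for Tgfb3. Without V-S+ of clone 16.1 they were -0.02, 0.02 and 0.12 in that order.

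Among cells without SSEA-1, all 5 genes were again called higher with Venus (V+S- against V-S-), where 6.3% of all probes were, or 8.96% with the block. The folds were 1.82 for Id1, 2.79 for Id2, 2.76 for Smad3, 2.49 for Tgfbr2 and 2.05 for Tgfb3. Adjusted p-values (limma) lay between 0.016 and 0.022. In the signals as the scanner software processed them, the folds of the dimmest probes were larger, at 3.77 for Tgfbr2 and 2.76 for Tgfb3. For Id1 the fold was 1.82 in clone 5.1 and 1.82 in clone 16.1, the closest match between clones of any member in this comparison. With V-S- of either clone or V+S- of clone 16.1 left out, the calls did not hold for these genes or for any other probe. The log2 differences then lay between 0.78 (Id1, without V-S- of clone 5.1) and 1.64 (Id2, without V-S- of clone 16.1). In the authors' processed values 3 calls were kept, where 650 of 25164 probes were called.

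From V+S+ to V+S- the differences were of different sizes, and no test compared them between genes. Id1 differed by 0.07 ± 0.16 on the log2 scale (SE, n = 2 per fraction), with a 95% interval from 0.80-fold to 1.38-fold, and by 0.22 in clone 5.1 and -0.07 in clone 16.1. It was 0.18 under median centring and -0.01 in the Cy3 channel alone, and when single V+S+ or V+S- samples were left out it ran from -0.16 (V+S+ of clone 5.1) to 0.31 (V+S+ of clone 16.1). Id2 differed by 0.50 ± 0.23, Smad3 by 0.80 ± 0.23, Tgfbr2 by 0.66 ± 0.22 and Tgfb3 by 0.68 ± 0.19, and within each clone V+S- was the higher for all 4, as for 40.8% of all probes. Leaving out V+S+ of clone 5.1 gave differences of 0.21 for Id2, 0.48 for Smad3, 0.40 for Tgfbr2 and 0.46 for Tgfb3. With V+S- of clone 16.1 left out they were 0.29 for Id2 and 0.42 for Tgfbr2, and with V+S+ of that clone left out 0.79 for Id2.

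Without the block 0 of 5 genes was called, and 0% of all probes was called higher; adjusted p (limma) lay between 0.205 for Smad3 and 0.893 for Id1. In that model 4429 probes had an unadjusted p under 0.05, with Smad3, Tgfbr2 and Tgfb3 among them. With clone as a block, Smad3 (adjusted p = 0.014, limma), Tgfbr2 (0.020) and Tgfb3 (0.013) were called, against 1.75% of all probes called higher. Id2 passed the adjusted threshold with the block (0.034) but at 1.41-fold, and Id1 did not (0.665). The groups did not overlap for Smad3, Tgfbr2 and Tgfb3, as for 21.9% of all probes, and overlapped for Id1 and Id2.

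**Figure D2:**
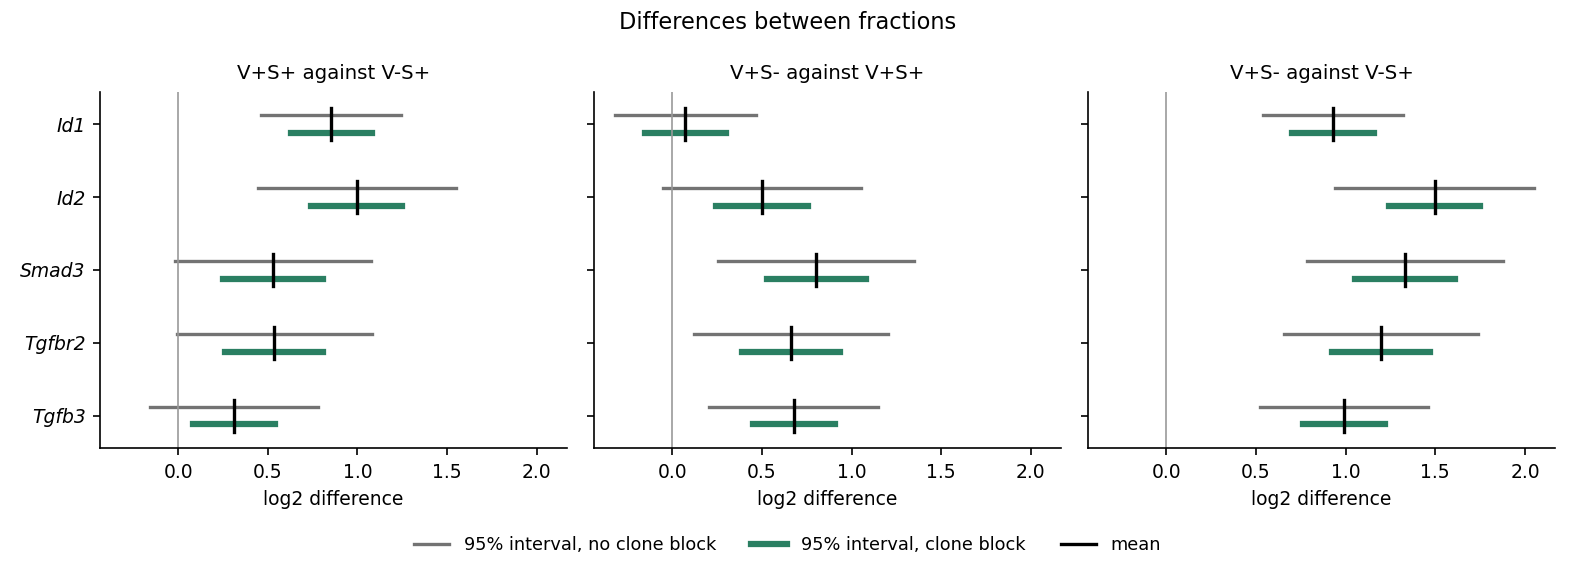
Log2 difference between fractions for each gene in 3 comparisons, with a tick for the mean and 95% intervals without (thin grey) and with (thick green) clone as a block. Id1 in V+S+ is 0.85 above V-S+ and 0.07 apart between the Venus-positive fractions. For Smad3, Tgfbr2 and Tgfb3 the mean difference between V+S- and V+S+ is larger than that between V+S+ and V-S+. Within clone 16.1 that held for Tgfb3 only.

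On the linear scale of ratios, the V+S+ level was expressed as a percentage of the way from V-S+ to V+S- of the same clone. Id1 in V+S+ stood at 68.8% in clone 5.1 and 110.8% in clone 16.1. Id2 stood at 45.6% and 62.5%. Smad3 was at 16.8% and 42.2%, Tgfbr2 at 29.4% and 39.4%, and Tgfb3 at 21.3% and 27.8%. Both Id genes thus stood at a higher percentage than the 3 TGF-beta components in each clone. The percentage was higher in clone 16.1 than in clone 5.1 for each of the 5 genes. The positions are given as a description over 2 clones, and the order of the genes was not tested.

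Across both SSEA-1 states the Venus difference could be taken over 4 samples a side. These come from 2 clones, each of which gives 2 samples a side, so n = 4 does not count independent lines. It was 0.86 ± 0.11 on the log2 scale (SE, n = 4) for Id1, 1.24 ± 0.16 for Id2, 1.00 ± 0.16 for Smad3, 0.93 ± 0.16 for Tgfbr2 and 0.67 ± 0.14 for Tgfb3. All 5 genes were called higher, as were 5.25% of all probes, or 6.14% with the block, with adjusted p (limma) from 0.0090 for Id2 to 0.020 for Tgfb3. In the exact permutation test of 4 against 4 samples (two-sided), Id1, Id2, Smad3 and Tgfbr2 each gave p = 0.029, the smallest value that 70 arrangements allow, and Tgfb3 gave p = 0.057. These arrangements exchange samples between clones, although clone pairs the samples. With exchanges within a clone only, a choice made after seeing the data, each of the 5 genes gave an exact p of 0.056, the smallest that 36 arrangements allow. Adjusted over all probes tested, the first set of exact permutation p-values gave 0.099 and 0.149. Venus-positive and Venus-negative samples did not overlap for 4 of the 5 genes, as for 16.7% of all probes. Leaving out V-S+ or V-S- of clone 5.1 removed the calls of Smad3, Tgfbr2 and Tgfb3. In both fits fewer probes were also called over the whole array. The log2 differences of the 5 genes then lay between 0.59 (Tgfb3) and 1.21 (Id2), both with V-S+ left out.

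Whether the Venus difference depended on SSEA-1 was tested as a difference of differences. For Id1 the Venus difference in cells without SSEA-1 exceeded that in cells with it by 0.01 ± 0.23 on the log2 scale. For Id2 the excess was 0.49 ± 0.32, for Smad3 0.94 ± 0.32, for Tgfbr2 0.78 ± 0.32 and for Tgfb3 0.72 ± 0.27 (SE, n = 2 per fraction). The excess was positive in both clones for these 4 genes, at 1.08 and 0.80 for Smad3, 0.69 and 0.87 for Tgfbr2, and 0.60 and 0.84 for Tgfb3 in clones 5.1 and 16.1. For Id1 it was 0.20 in clone 5.1 and -0.18 in clone 16.1. Leaving out V+S+ of clone 5.1 put the excess at 0.20 for Id2, 0.61 for Smad3, 0.52 for Tgfbr2 and 0.51 for Tgfb3. For Id2 it was 0.28 with V+S- of clone 16.1 left out, 0.78 with V+S+ of that clone left out and 0.79 under median centring in place of loess. For Id1 it was 0.35 under median centring and -0.06 in the Cy3 channel alone, and ran from -0.23 with V+S+ of clone 5.1 left out to 0.25 with V+S+ of clone 16.1 left out.

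None of the 5 was called, nor was any probe (0% higher), without the block. The adjusted p (limma) was at least 0.598 then, while 2340 probes had an unadjusted p under 0.05, with Smad3, Tgfbr2 and Tgfb3 among them. With the block the adjusted p (limma) was 0.058 for Smad3, 0.065 for Tgfb3, 0.078 for Tgfbr2, 0.157 for Id2 and 0.982 for Id1, so that none passed, and 0.899% of all probes were called higher. A difference between the Venus effects was therefore not established for any of these genes.

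**Figure D3:**
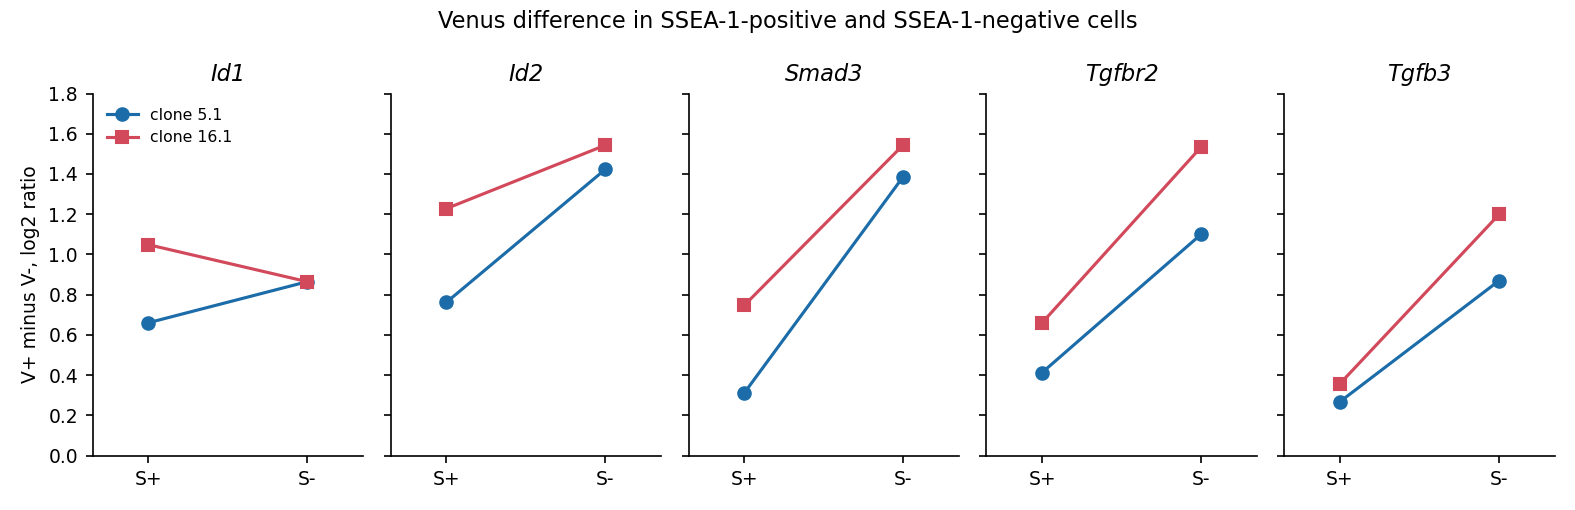
Log2 ratio of Venus-positive minus Venus-negative cells among SSEA-1-positive (S+) and SSEA-1-negative (S-) cells, drawn for each gene with a line per clone. The lines of Smad3, Tgfbr2 and Tgfb3 climb from S+ to S- in both clones, whereas those of Id1 meet at 0.86 in S- after 0.66 in clone 5.1 and 1.05 in clone 16.1 in S+.

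By the moderated F-test for any difference among the 4 fractions, 4 of the 5 genes passed an adjusted p of 0.05 (limma), where 7.38% of all probes did, and Tgfb3 was just outside with 0.055. All 5 passed with clone as a block, as did 43.5% of all probes. None of the 5 passed in the signals as the scanner software processed them or in the authors' values, and passing also depended on single samples. The study's own analysis of variance of these arrays did list all 5 at an FDR under 0.05. The cause of that difference was not tested.

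The wider pathway was read from 6 lists, without the 5 genes above, holding 76 genes, of which 22 could be named and tested. With V+S- set against V-S+, 17 of the 22 were called higher and 1 lower (18 and 1 with the block), where 5.73% of all probes were called higher and 1.28% lower (8.87% higher with the block), with a median log2 difference of 1.10 where that of all probes was 0.01. With V+S+ set against V-S+, 20 of the 22 were higher but none was called without the block, and 10 were called higher with it, where 3.87% of all probes were; the median was 0.57. The genes that could be named come from the study's list of differentially expressed genes, so the counts describe a selected set. Only 5 calls were left in the authors' values, where 395 of 25164 probes were called. Without V-S+ of either clone or V+S- of clone 16.1 the calls did not hold for these genes or for nearly any other probe.

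Among 6 named ligands, Inhba, which encodes the activin A subunit, rose in V+S- by 1.26 on the log2 scale (2.40-fold) and was called in V+S+ (0.63) with the block. Bmp8a (0.87) and Bmp8b (0.77) were also called higher in V+S-. Tgfb2, a ligand of the same family as Tgfb3, differed by 1.52 ± 0.42 (SE, n = 2 per fraction) with an adjusted p (limma) of 0.055 without the block, and was called with it (0.00033). Gdf3, a Nodal-related ligand of undifferentiated cells, differed by -0.43 in V+S-, at 0.741 of its V-S+ level, and by -0.07 in V+S+. Gdf9 differed by -0.14 in V+S- and by -0.49 in V+S+, at 0.712 of its V-S+ level, with an adjusted p (limma) of 0.190 without the block and 0.022 with it, and was under the 1.5-fold threshold.

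Of 2 named receptors beside Tgfbr2, the co-receptors went opposite ways. Tgfbr3, or betaglycan, which presents TGF-beta to Tgfbr2, rose by 1.00 in V+S- (2.00-fold). Tdgf1, or Cripto, the co-receptor for Nodal, was the only named pathway gene called lower: its log2 ratios in clone 5.1 were 1.52 for V-S+, 1.55 for V-S-, then 1.67 for V+S+ and 0.97 for V+S-, and in clone 16.1 they were 1.69, 1.70, 1.67 and 1.02. The fall in V+S- was 0.61 on the log2 scale, and no V+S- sample overlapped the rest.

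Beside Smad3, 2 regulators of Smads could be named, and both were called higher in V+S- (5.73% of all probes, or 8.87% with the block). Pmepa1, which holds back Smad2 and Smad3, differed by 0.78 and Smurf1, a ubiquitin ligase for BMP Smads, by 0.65. In V+S+ neither was called, with or without the block.

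All 5 named extracellular regulators were called higher in V+S- (5.73% of all probes), and all 5 in V+S+ with the block (3.87% of all probes). Ltbp1, which tethers latent TGF-beta to the matrix, rose by 1.93 in V+S- (3.81-fold), and Thbs1, which can activate latent TGF-beta, by 1.78. Bmp1, a protease that cleaves BMP antagonists and procollagen, rose by 1.58, Crim1, a BMP-binding membrane protein, by 1.14, and Fstl1, a secreted follistatin-like protein, by 1.13.

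Of 6 named response genes beside Id1 and Id2, 5 were called higher in V+S-, where 5.73% of all probes were. Tgfbi, a matrix protein named for its induction by TGF-beta, rose by 1.84, Cdkn2b, a cell cycle inhibitor, by 1.64, and Tgfb1i1 by 1.32. Ctgf, a matricellular protein, rose by 1.07 and Snai1, a repressor of E-cadherin, by 1.01. The remaining one, Tsc22d1, differed by 0.58 and was just under 1.5-fold.

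Ctgf ran close to Id1. It exceeded its V-S+ level by 1.04 in V+S+ and by 1.07 in V+S-, and its difference between V+S+ and V+S- was 0.03 with an adjusted p (limma, clone as a block) of 0.844. Snai1 was nearer to Tgfb3, at 0.24 in V+S+ and 1.01 in V+S-. Tcf12, the single E protein gene that could be named and a partner of Id proteins, differed by 0.64 in V+S+ and by 1.16 in V+S- from V-S+, was called in V+S-, and in V+S+ with the block.

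**Figure D4:**
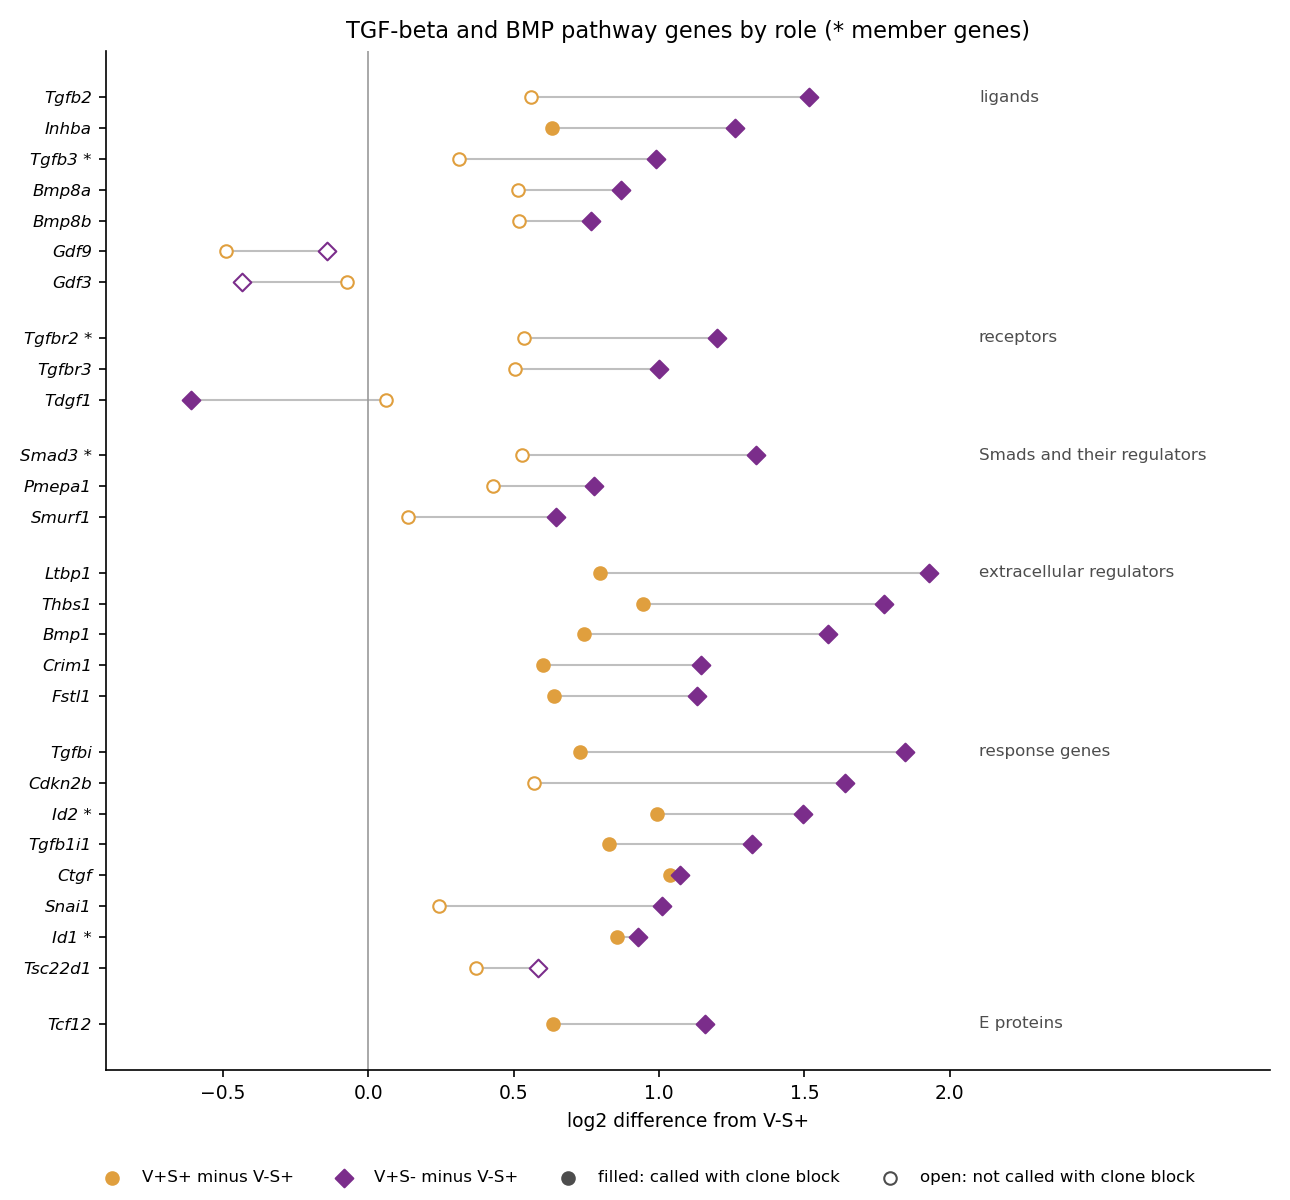
Log2 difference from V-S+ of each named pathway gene, grouped by role, in V+S+ (circles) and V+S- (diamonds), with filled symbols for genes called with clone as a block. Most diamonds lie to the right of their circles, up to 1.93 for Ltbp1, the pairs of Id1 and Ctgf nearly coincide, and Tdgf1 lies at -0.61 in V+S-.

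The named probes whose log2 ratios over the 8 samples ran closest to each gene were found by Pearson's r, as a description. For Id1 these were Ctgf (r = 0.995), Stag2 (0.994) and Zswim6 (0.994), and for Id2 Usp47 (0.998), Hipk3 (0.998) and 2900042B11Rik (0.997). Gm22, Tet3 and Osmr were closest to Smad3 (each 0.999), Gm22 (0.997), Zbtb4 (0.996) and Bmp1 (0.996) to Tgfbr2, and Lrrk1 (0.998), Mtvr2 (0.995) and Cd248 (0.994) to Tgfb3. Among the 5 genes themselves r was lowest for Id1 with Tgfb3 (0.843) and highest for Smad3 with Tgfbr2 (0.993). The 8 samples share 2 clones and their slides, and these values rest on differences between fractions as well as between clones. The named probes are on the study's list and were thus chosen for differing among these fractions. Of 29482 other probes, named or not, 7 (Ctgf included) had an r with Id1 at least that of Ctgf. For Bmp1 with Tgfbr2 this count was 10.

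Since all 5 genes were called higher in V+S-, the 250 bases before the start of transcription were read from RefSeq (GRCm38.p6), which the table used held for Id2, Smad3 and Tgfbr2. They were searched on both strands for 6 motifs. Of these, 3 are known as Smad elements: the Smad box CAGAC, the palindrome GTCTAGAC, and the GC-rich GGCGCC bound by BMP-activated Smads. The others were the E-box CANNTG, the CCAAT box CCAAT and the TATA box TATAAA. Such motifs can overlap by outer bases, and none did here. The windows of Id2 and Tgfbr2 are printed because each held 1 match to a Smad element, in capitals, while that of Smad3 held none of the 6 motifs.

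Id2 (chr12:25096093-25096342, minus strand): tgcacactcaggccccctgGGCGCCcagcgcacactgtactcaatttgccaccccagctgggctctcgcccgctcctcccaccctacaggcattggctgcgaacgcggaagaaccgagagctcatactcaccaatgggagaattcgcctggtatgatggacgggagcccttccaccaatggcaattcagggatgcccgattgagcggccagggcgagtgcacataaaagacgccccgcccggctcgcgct

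Tgfbr2 (chr9:116175364-116175613, minus strand): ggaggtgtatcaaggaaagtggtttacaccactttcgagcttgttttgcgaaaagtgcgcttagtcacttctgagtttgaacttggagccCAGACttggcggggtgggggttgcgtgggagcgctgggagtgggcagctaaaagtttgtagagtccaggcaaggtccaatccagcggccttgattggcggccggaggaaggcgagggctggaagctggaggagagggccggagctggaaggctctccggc

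Of 32851 RefSeq windows of the same 250 bases, 9.59% held GGCGCC, 42.2% held CAGAC and 0.167% held GTCTAGAC, which none of the 3 windows did. The CCAAT box CCAAT occurred 3 times for Id2 and 2 times for Tgfbr2 and stood in 33.8% of all windows. The E-box occurred 1 time for Id2 and in neither of the other windows, against 66.2% of all windows, and the TATA box in none of the 3, against 12.4%. These are matches of letters in a window and not sites at which a factor was measured.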

How the data were processed

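Intensities were deposited as 16 scanner files (Agilent Feature Extraction, per the labels), 2 repeat scans for each of 8 arrays, and the authors also deposited a table of log10 values for 25164 probes, used as an alternative. The array design number in the file headers is not the one in the study's methods. After normexp correction (offset of 50) of mean signals for local background, scans were normalized by loess (limma 3.58.1, R 4.3.3) and the 2 scans of a sample averaged. Of 42006 probes, 29495 were well above background in all Cy3 files of at least 1 fraction, and 29483 of these had a value in both scans of every sample and were tested. No spot was saturated.

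One limma model with fraction as the only term was fitted to all 8 samples and adjusted by Benjamini-Hochberg. Pairs and the Venus difference were called at an FDR of 0.05 and more than 1.5-fold, other tests at the FDR alone. All 4 fractions of a clone come from 1 cell line, so clone pairs the samples: a clone's deviations from the means of the fractions were correlated across probes in all 6 pairs of fractions (r from 0.59 to 0.81). The number of arrays limits the precision, and nothing in the labels says that clones were cultured more than once.

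Symbols were taken from 1998 rows of the study's list that pairs probes with genes, since the scanner files pair none. The rule named all 5 members, the genes of 6 pathway lists called in V+S+ or V+S- against V-S+, and the 3 named probes closest to each member. The 4 genes of those lists that were not called are named too, a choice made after their values were seen. A withheld item was left out of the lists and is not reported here. The members and lists were chosen with earlier results of these data known. The code was tested on simulated data. The alternatives are given in the closing section.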

Additional observations from a re-analysis of the deposited data

How the results depend on the processing

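With clone as a replicate block, 2 members (Id1 and Id2) in place of 0 were called for V+S+ against V-S+, 3 in place of 0 for V+S- against V+S+, and 10 other pathway genes in place of 0 for V+S+ against V-S+, and these counts were the same with the filter on all samples added; the block changed no other count of called members by more than 1.5 times. The authors' log10 values left 0 of 5 calls for V+S- against V-S+, where 395 of 25164 probes were called. They left 3 of 5 for V+S- against V-S-, where 650 probes were called. The overall difference among fractions kept 0 of 4, and the other pathway genes 5 of 18. The signals processed by the scanner software left 0 of 4 for the overall difference. When each sample was left out in turn, the members called ranged from 0 to 5 for V+S- against V-S+ (3 without a V-S- sample), from 0 to 5 for V+S- against V-S-, from 2 to 5 for the Venus effect and from 0 to 5 for the overall difference, and the other pathway genes from 0 to 19 (11 without V+S- of clone 5.1). In such fits the fraction left with 1 sample is assumed to vary like the others.

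Of the tests of single members, 609 under the alternatives kept their direction and side of the threshold, 55 kept the direction only, 10 passed where the first did not, and 16 turned sign. Those that turned were all differences not called at first. For V-S- against V-S+ they were Id1 (-0.17) and Id2 (-0.20) under median centring, Id2 (-0.0323) in the first scan alone, and without one sample Id1 (-0.0238), Id2 (-0.0421 and -0.14), Tgfbr2 (0.0188) and Tgfb3 (0.12). For V+S- against V+S+ Id1 turned to -0.0115 in the Cy3 channel alone and to -0.16 or -0.0135 without one sample. The difference between the Venus effects of Id1 turned to -0.0647 in the Cy3 channel alone and, without one sample, to -0.226, -0.0775, -0.0773 or -0.0319. The cause was not tested for any of these. Tgfbr2 and Tgfb3 lay closest to background, and their differences were larger when the scanner software had processed the signals (1.91 and 1.47 for V+S- against V-S-). Besides, 2 arrays per fraction limit every test.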
